A study of Mus musculus with 12 samples.

Results

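Total RNA of macrophages exposed to lipopolysaccharide (LPS) for 270 min was compared with total RNA of unstimulated macrophages. The comparison used 4 of the series' 12 arrays, 2 of cells given LPS at 100 ng/ml for 270 min and 2 of cells without LPS. They were the arrays titled as total RNA at those times, matched by experiment number, and they were compared over 19938 genes. A gene is a symbol that a probe set bears alone, and where several probe sets bore it the brightest over all 12 arrays was used. The cells were macrophages derived from the bone marrow of C3H/HeN mice, a strain with an intact LPS receptor, expanded from marrow with IL-3, IL-6 and stem cell factor and matured without these cytokines, with an L-cell supernatant as the source of the growth factor M-CSF throughout but not on the last plating. Every culture, unstimulated ones included, also received the uridine analogue 4-thiouridine at 200 µM for its last 35 min, so no group here is free of it. The other 8 arrays hold total RNA at 45 min of LPS and nascent RNA, the 4-thiouridine-labelled fraction purified from the same cultures, at 270, 45 and 0 min. Each group came from 2 independent experiments. The labels do not give the number of mice behind a culture, so the spread between mice is not known. The p-values rest on the spread between the 2 cultures of each group, pooled over all 12 arrays, nascent RNA included. Nascent and total RNA of the same culture were fitted as separate arrays.

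LPS is a lipid of the outer membrane of Gram-negative bacteria. Macrophages bind it through CD14 and the TLR4 and MD-2 receptor complex, which signals through MyD88 to NF-kB and MAP kinases and through TRIF to interferon regulatory factors. The first wave of transcripts encodes cytokines, chemokines and feedback inhibitors, and interferon made by the cells then drives a later wave of antiviral and antimicrobial genes. Several hours into the response macrophages are known to hold both waves, together with a reorganised set of receptors, metabolic enzymes and lysosomal genes.

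Values are RMA intensities, a normalised brightness of each gene's probes on the Mouse Gene ST 1.0 array, and levels are given as their log2. Levels of different genes are not comparable, since each has its own probes. Array 1 and array 2 of a group are those of experiments 1 and 2, and per-array levels are listed in that order. For every gene whose 4 levels are listed in these results the groups do not overlap. Differences are log2, 270 min minus unstimulated, with the standard error of limma's fit (n = 2 arrays a group), and a gene is said to have risen or fallen where the Benjamini-Hochberg adjusted p over all genes was below 0.05. The 95th percentile of 1027 olfactory receptor genes on an array served as its background, at 6.24 and 6.72 on the 270 min arrays, against 6.24 and 6.32 on the unstimulated arrays. Where both arrays of the dimmer group lay below it, the change against it is given as "at least". The interquartile range over genes was 2.73 and 2.32 on the 270 min arrays, narrower than the 2.91 and 2.88 of the unstimulated arrays, and the olfactory receptor genes themselves had a median difference of 0.25. Of these 1027 genes 49 passed as rises, 46 of them dim in both groups, and 1 as a fall. The rises among them numbered 27 to 118 in the alternatives that kept every array, 266 without the 270 min array of experiment 1, 9 without the 270 min or without the unstimulated array of experiment 2, and 20 without the unstimulated array of experiment 1. All 7 macrophage markers tested lay above background in both groups, and all 4 B cell markers lay below it in both. In a bulk sample, fewer cells of a type and less RNA per cell cannot be told apart.

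Of the 19938 genes, 1710 rose (8.58%) and 3000 fell (15.0%). Of the 11030 genes above background in at least 1 group 1407 rose (12.8%) and 2878 fell (26.1%), and their median difference was -0.15, against 0.07 over all genes. Most lists below hold mainly such genes, and their counts are read against these shares too. With the dim genes left out of the fit 1478 rose and 2972 fell. Changes of 2-fold or more numbered 861 rises (4.32%) and 1309 falls (6.57%). The rises reached further than the falls. Among called genes 308 rose and 186 fell by 4-fold or more, and 69 rose and 4 fell by 16-fold or more. All 4710 called genes had the same sign in both experiments. The calls rest on the mean of these same 2 differences, so the shared sign is no separate check. Unstimulated arrays both lay below background for 426 of the genes that rose, and 270 min arrays for 462 of those that fell. The counts depended on single arrays, each left out alone in the values that follow and in all values below given as without an array. Without unstimulated array 1 1111 genes rose and 1834 fell, without unstimulated array 2 1912 fell, and without 270 min array 2 1828 fell. Nearest to the threshold, Zcchc8, Ppp1r12c and Pygb had adjusted p of 0.0498 to 0.0499, and Abca5, Oit3 and Gm5150 stood just outside it at 0.0502.

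**Figure D1:**
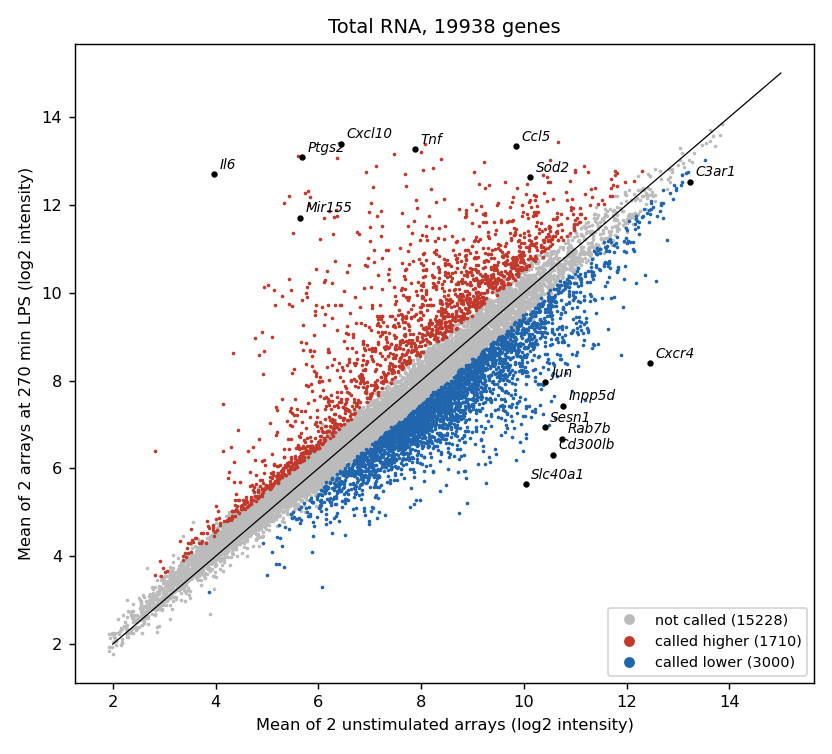
Mean log2 level of each of the 19938 genes in 270 min LPS (vertical axis) against unstimulated macrophages (horizontal axis), 2 arrays each. Points in red are the 1710 genes that rose, points in blue the 3000 that fell and points in grey the 15228 that passed in neither direction; the largest rises climb furthest from the diagonal at the dim, left side.

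The 4 largest rises were of genes for secreted mediators and an enzyme, near or below background without LPS. Il6, the cytokine interleukin-6 that acts on liver, B cells and T cells, had levels of 12.62 and 12.76 at 270 min, against 3.87 and 4.07 in unstimulated cells. Both unstimulated arrays were below background, and the rise was at least 85.3-fold (measured difference 8.72 ± 0.24, adjusted p = 3.6e-12). Il1a, the alarm cytokine interleukin-1 alpha, had 13.23 and 13.0 at 270 min, against 5.99 and 5.21 in unstimulated cells, a rise of at least 114-fold. Ptgs2, the inducible cyclooxygenase that starts prostaglandin synthesis, had 13.17 and 13.02 at 270 min, against 5.72 and 5.67 in unstimulated cells, a rise of at least 112-fold (difference 7.4 ± 0.17, adjusted p = 8.08e-13). No array of these 3 genes in one group came near the other group. Cxcl10, a chemokine for activated T cells, had 13.49 and 13.3 at 270 min, against 6.39 and 6.5 in unstimulated cells, where it was measurable, and rose by 6.95 ± 0.19 on the log2 scale.

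The leading falls were smaller and included genes of receptors, transporters and signalling proteins that were well above background without LPS. Slc40a1, ferroportin, the iron exporter of macrophages, had 5.39 and 5.9 at 270 min, against 10.17 and 9.91 in unstimulated cells, a fall of at least 11.8-fold (difference -4.39 ± 0.29, adjusted p = 2.74e-08). Cd300lb, an activating receptor of myeloid cells, had 6.21 and 6.4 at 270 min, against 10.93 and 10.19 in unstimulated cells, at least 16.9-fold lower. Rab7b, a small GTPase of late endosomes, fell by 4.07 ± 0.23. Cxcr4, the receptor of the chemokine Cxcl12, had 8.41 and 8.4 at 270 min, against 12.64 and 12.29 in unstimulated cells, and stayed above background after its 16.7-fold fall (difference -4.06 ± 0.16, adjusted p = 8.79e-11). Among the 30 largest falls were also Tcp11l2 (at least 5.36-fold), the translation inhibitor Pdcd4 (at least 6.9-fold), the arrestin family gene Arrdc3 (-3.61 ± 0.19), the membrane-curving protein gene Mtss1 (-3.51 ± 0.18), the ceramide kinase gene Cerk (-3.31 ± 0.2) and the peroxisomal transporter gene Abcd2 (at least 5.24-fold). Folliculin (Flcn, -3.13 ± 0.24) and its partner Fnip2 (-3.3 ± 0.16), which act in nutrient sensing at the lysosome, were both in this group.

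**Figure D2:**
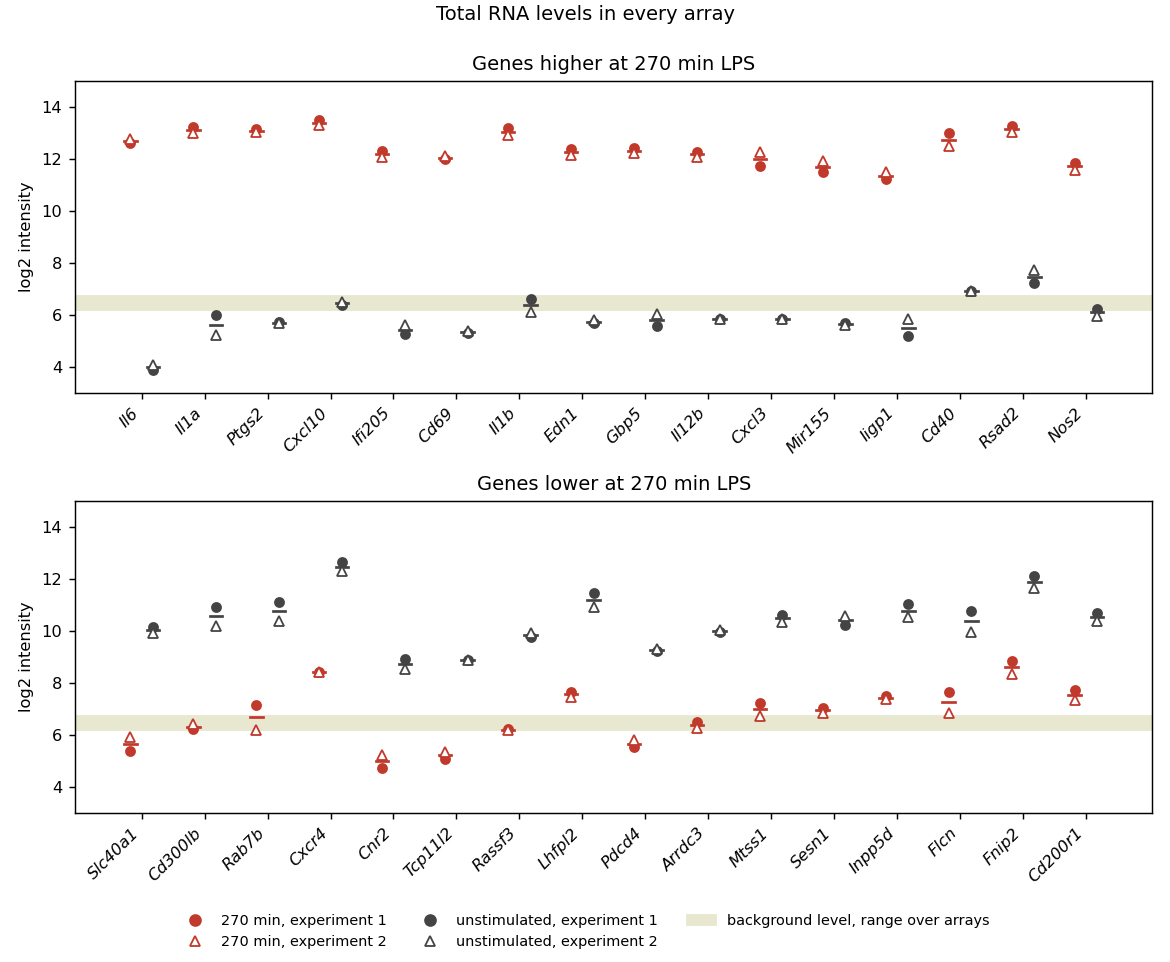
Log2 level on every array for 16 genes among the largest rises (top) and 16 among the largest falls (bottom), with 270 min LPS in red on the left of each gene and unstimulated cells in grey on the right. Circles are experiment 1, triangles experiment 2, bars the mean of 2 arrays and the shaded band the background of the total RNA arrays (6.18 to 6.72); the groups do not overlap for any gene shown.

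Promoter sequences of 3 genes that rose strongly and 1 that fell are shown because they hold, or lack, the short elements of the factors that LPS activates. Each covers the 250 bases before the gene start in RefSeq, build GRCm38.p6, read 5′ to 3′ on the gene's strand. Capitals mark matches, on either strand, to the interferon response element GAAANNGAAA, to the AP-1 element TGANTCA and to the kB consensus of NF-kB, and matches that overlap run together.
Il6, chr5:30012864-30013113, plus strand: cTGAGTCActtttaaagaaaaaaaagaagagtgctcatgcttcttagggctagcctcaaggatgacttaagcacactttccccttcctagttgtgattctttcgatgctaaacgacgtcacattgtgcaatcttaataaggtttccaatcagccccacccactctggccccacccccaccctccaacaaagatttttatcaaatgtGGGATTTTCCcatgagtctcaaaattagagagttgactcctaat
Cxcl10, chr5:92348890-92349139, minus strand: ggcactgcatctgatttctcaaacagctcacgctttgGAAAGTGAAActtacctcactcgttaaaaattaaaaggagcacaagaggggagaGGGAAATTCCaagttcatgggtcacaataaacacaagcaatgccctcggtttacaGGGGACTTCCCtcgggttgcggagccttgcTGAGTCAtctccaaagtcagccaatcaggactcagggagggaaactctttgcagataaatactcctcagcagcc
Gbp5, chr3:142496684-142496933, plus strand: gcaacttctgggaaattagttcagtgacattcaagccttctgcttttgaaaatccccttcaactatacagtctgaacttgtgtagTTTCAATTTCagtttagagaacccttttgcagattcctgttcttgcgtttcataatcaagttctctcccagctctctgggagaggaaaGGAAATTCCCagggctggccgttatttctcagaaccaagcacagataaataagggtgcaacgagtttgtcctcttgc
Cd300lb, chr11:114934372-114934621, minus strand: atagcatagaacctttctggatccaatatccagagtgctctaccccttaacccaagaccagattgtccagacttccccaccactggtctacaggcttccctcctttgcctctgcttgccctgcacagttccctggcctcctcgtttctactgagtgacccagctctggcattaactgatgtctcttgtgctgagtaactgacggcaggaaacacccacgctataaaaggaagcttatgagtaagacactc
Il6 held an AP-1 match at 249 to 243 bases before its start and a kB match at 44 to 35 bases. Cxcl10 held all of them, with the interferon element at 213 to 204 bases, kB matches at 159 to 150 and at 104 to 94 bases and AP-1 at 74 to 68 bases. In Gbp5, a guanylate binding protein gene, the interferon element lay at 165 to 156 bases and a kB match at 77 to 68 bases, and Cd300lb held no match in this window. Shares are of genes with a match in at least 1 of their promoters in the table. The interferon element was found for 30.6% of the 49 genes that rose 16-fold or more and for 9.29% of 678 that rose 2-fold or more. It was found for 2.01% of 1096 genes that fell 2-fold or more, against 3.4% of all 15614 tested genes with an entry. Matches to kB were found in 22.4%, 14.7% and 9.49% of the same 3 groups, against 9.49% of all. AP-1 matches were found in 22.4%, 7.37% and 6.11%, against 7.12% of all. Of the 32851 promoters in the whole table, counted singly and not by gene, 2.98% held the interferon element, 6.75% AP-1 and 7.25% kB. A match is a string of letters, and binding was not measured.

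Among the receptors that sense microbes, Cd14 rose and Tlr4 fell. Of 14 Toll-like receptor and complex genes 7 rose and 2 fell. Tlr4, the signalling chain of the LPS receptor, had 9.3 and 8.9 at 270 min, against 10.29 and 10.48 in unstimulated cells, and fell by 1.29 ± 0.19 (adjusted p = 0.000104). Cd14, which hands LPS to it, had 12.58 and 11.9 at 270 min, against 10.43 and 9.67 in unstimulated cells, and rose by 2.19 ± 0.28. The receptors of bacterial lipopeptides, Tlr2 (1.99 ± 0.17), Tlr1 (2.48 ± 0.19) and Tlr6 (1.64 ± 0.19), rose, as did Tlr3 (2.3 ± 0.2), the receptor of double-stranded RNA. Tlr13, which senses bacterial ribosomal RNA in mice, had 9.15 and 8.51 at 270 min, against 11.33 and 11.35 in unstimulated cells, and fell by 2.51 ± 0.22. Of 18 adaptors and kinases downstream 8 rose and 1 fell, Tab1 (-0.85 ± 0.28), which did not pass with no replicate block, under other scalings or without either 270 min array or unstimulated array 1. The E3 ligase gene Peli1 rose most (2.42 ± 0.14), followed by Irak3 (1.23 ± 0.18), which encodes an inhibitory member of the IRAK family, Irak2 (1.12 ± 0.2) and Tab2 (1.05 ± 0.15).

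Genes of NF-kB itself and of its inhibitors rose nearly without exception. Of 10 genes for NF-kB subunits and IkB proteins 9 rose and 0 fell, with a median difference of 1.93, against 0.07 over all genes. Nfkbiz, the nuclear IkB protein that helps to switch on Il6, had 11.96 and 11.66 at 270 min, against 7.59 and 7.66 in unstimulated cells, and rose by 4.19 ± 0.17. Nfkbie rose by 3.63 ± 0.25, Nfkbia by 2.8 ± 0.27, Nfkb2 by 2.58 ± 0.18 and Rel by 1.89 ± 0.2. Of 15 further brakes on the pathway 8 rose and 0 fell. They included the adaptor gene Traf1 (4.02 ± 0.24) and the genes of the ubiquitin editor A20 (Tnfaip3, 3.16 ± 0.17) and of its binding protein ABIN-3 (Tnip3, 2.89 ± 0.2). Tnfaip3 had 12.12 and 11.68 at 270 min, against 8.79 and 8.69 in unstimulated cells.

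Genes of cytokine signalling and of its feedback changed mainly upward. Of 17 STAT, JAK and SOCS genes 11 rose and 1 fell. Cish rose at least 9.87-fold, Socs3, the inhibitor of interleukin-6 signalling, rose by 3.57 ± 0.19, Jak2 by 3.13 ± 0.16 and Stat2, a subunit of the interferon-activated factor ISGF3, by 2.48 ± 0.22, while Socs6 fell by 1.79 ± 0.2. Of the interferon regulatory factors, Irf7 had 11.94 and 11.69 at 270 min, against 8.49 and 9.24 in unstimulated cells, and rose by 2.95 ± 0.32, and Irf1 rose by 2.58 ± 0.21. The interferon gamma receptor gene Ifngr1 fell by 1.21 ± 0.22. Among the AP-1 and other immediate early factors 11 of 24 rose and 2 fell, 1 of them with no replicate block, under other scalings or when any one array was left out; the number that rose was 6 without either 270 min array or without unstimulated array 1 and 7 without unstimulated array 2. The orphan nuclear receptor gene Nr4a3 rose at least 6.61-fold, Batf2 by 2.6 ± 0.18 and Batf by 2.02 ± 0.23, whereas Jun, with 8.38 and 7.55 at 270 min, against 10.89 and 9.95 in unstimulated cells, fell by 2.46 ± 0.21. Factors that destroy messenger RNA were split as well, 5 of 14 rising and 3 falling. Zc3h12c (2.45 ± 0.19), Zc3h12a (1.62 ± 0.25), the gene of the nuclease regnase-1, and the decapping enzyme gene Dcp2 (2.21 ± 0.18) rose, and Zfp36l1, a binder of AU-rich elements, with 6.26 and 6.53 at 270 min, against 9.21 and 9.19 in unstimulated cells, fell by 2.81 ± 0.2.

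Cytokine genes rose in each family examined. In the interleukin-1 family 6 of 9 rose and 0 fell. Il1b, the secreted form that needs cleavage by caspase-1, had 13.2 and 12.91 at 270 min, against 6.62 and 6.1 in unstimulated cells, and rose by 6.7 ± 0.21. Its receptor antagonist Il1rn rose by 3.6 ± 0.2 and Il18 by 3.23 ± 0.27. Of 14 other interleukin and interferon genes of innate cells 8 rose and 1 fell, Il16 (at least 1.14-fold), which did not pass when any one array was left out. The shared p40 chain of interleukins 12 and 23, Il12b, had 12.26 and 12.09 at 270 min, against 5.84 and 5.85 in unstimulated cells, and rose at least 59.5-fold. Its partner chains rose too, Il12a at least 19.3-fold and Il23a at least 10.9-fold, while Il27 rose by 4.86 ± 0.22 and Il15 by 3.01 ± 0.23. Of 19 TNF superfamily ligands and receptors 10 rose and 2 fell, and 1 fell without unstimulated array 1. Tnf itself had 13.54 and 12.99 at 270 min, against 8.0 and 7.78 in unstimulated cells, and rose by 5.37 ± 0.16. Tnfsf15 rose by 5.03 ± 0.19, and the death ligand TRAIL (Tnfsf10) and the 4-1BB ligand (Tnfsf9) rose at least 13.6- and 10.7-fold. Tnfrsf21, death receptor 6, fell by 2.07 ± 0.2.

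Growth factors did not share that direction. Of 15 colony stimulating and growth factor genes 4 rose and 6 fell, of which 3 fell without 270 min array 2 or without unstimulated array 2. The rises included Inhba (5.07 ± 0.22), the activin A subunit gene, Csf1 (3.84 ± 0.22), the gene of M-CSF, and Csf2, the gene of GM-CSF, at least 6.43-fold. Hgf (-1.39 ± 0.19) and Vegfb (-1.03 ± 0.17) fell. Csf1r, the receptor of M-CSF and a macrophage marker, had 12.11 and 11.63 at 270 min, against 12.85 and 12.45 in unstimulated cells, and fell by 0.78 ± 0.16.

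Most chemokine genes rose. Of 13 CXC chemokines 9 rose and 0 fell, with a median difference of 2.24, and of 14 CC and CX3C chemokines 12 rose and 1 fell, with a median of 2.4; the fall, of Ccl6 (-0.58 ± 0.15), did not pass with no replicate block or without 270 min array 2 or either unstimulated array. The neutrophil attractant Cxcl3 had 11.72 and 12.26 at 270 min, against 5.82 and 5.83 in unstimulated cells, and rose at least 52.2-fold. Cxcl2 rose by 5.77 ± 0.2 and Cxcl1 by 5.41 ± 0.17. Among the interferon-inducible T cell attractants, Cxcl9 rose at least 11.8-fold and Cxcl11 at least 7.88-fold. Of the monocyte attractants Ccl2 rose at least 15.7-fold and Ccl12 at least 14.9-fold, and Ccl4 (4.6 ± 0.19) and Ccl5 (3.5 ± 0.23) rose from measurable levels. Among the receptors fewer passed, 2 of 13 rising (1 with no replicate block) and 4 falling. Ccr2, through which monocytes follow Ccl2, had 6.59 and 6.53 at 270 min, against 9.13 and 8.95 in unstimulated cells, and fell by 2.48 ± 0.19, and Cx3cr1 fell by 0.97 ± 0.19. Ccrl2, an atypical receptor that presents a chemoattractant without signalling, rose by 2.51 ± 0.19.

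All 33 antiviral interferon-stimulated genes tested rose, with a median difference of 2.61, and 31 to 33 rose in each alternative processing. Rsad2, viperin, which makes a chain-terminating nucleotide, had 13.26 and 13.05 at 270 min, against 7.23 and 7.71 in unstimulated cells, and rose by 5.68 ± 0.26. Mx1 rose by 5.53 ± 0.22, the nucleotide kinase gene Cmpk2 next to Rsad2 by 5.01 ± 0.24, and Ifit2 and Ifit1, whose proteins bind foreign RNA, by 4.76 ± 0.21 and 4.65 ± 0.34. All 9 guanylate binding protein and immunity-related GTPase genes rose, as they did in every alternative, with a median of 4.21. They guard the vacuoles in which microbes live. Gbp5 had 12.41 and 12.22 at 270 min, against 5.58 and 6.01 in unstimulated cells, and rose at least 65.5-fold, Iigp1 at least 33.8-fold, Gbp4 by 5.65 ± 0.2 and Gbp3 by 5.33 ± 0.22. All 4 genes of the Ifi200 family rose, Ifi205 at least 60.2-fold and the DNA sensor gene Aim2 by 1.56 ± 0.21. Probe sets of such families of similar sequence may share signal.

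Further families with known interferon-inducible members were partly split. Of 10 Schlafen genes 8 rose and 0 fell, led by Slfn4 (4.34 ± 0.21) and Slfn1 (4.15 ± 0.26). Of 11 PARP genes 6 rose and 2 fell (1 without unstimulated array 1). Parp9 (2.48 ± 0.21), Parp12 (2.33 ± 0.2) and Parp14 (2.31 ± 0.15) rose, and Parp1, the DNA damage sensor, had 7.61 and 7.17 at 270 min, against 9.13 and 8.61 in unstimulated cells, and fell by 1.48 ± 0.23. Of 59 tripartite motif genes 12 rose and 10 fell; 6 fell with no replicate block or without unstimulated array 2, and 16 with only the 4 arrays compared in the fit. Trim30d rose at least 30.7-fold and Trim21, the intracellular antibody receptor, by 3.26 ± 0.25, and Trim37 (-1.48 ± 0.18) and Trim24 (-1.25 ± 0.19) fell. Usp18, which removes the ubiquitin-like protein ISG15, had 12.03 and 11.8 at 270 min, against 7.65 and 8.18 in unstimulated cells, and rose by 4.0 ± 0.28. Ube2l6, the enzyme that attaches ISG15, rose by 1.97 ± 0.3. Of 19 membrane-spanning 4A genes 7 rose and 0 fell, led by Ms4a4c (3.78 ± 0.25).

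**Figure D3:**
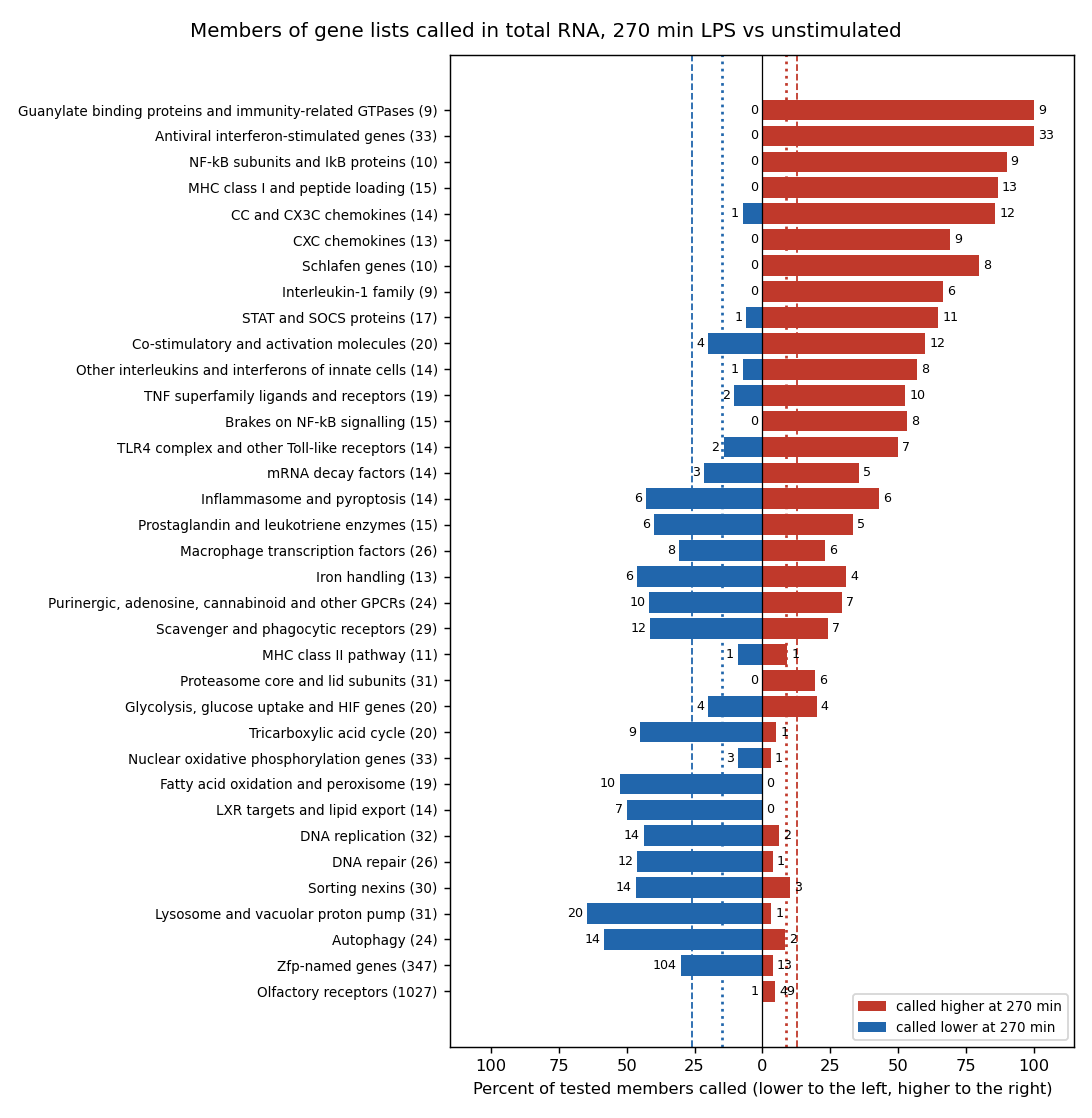
Share of tested members of gene lists that rose (red, to the right) and fell (blue, to the left) at 270 min of LPS against unstimulated cells, in percent, with the counts printed at the bars. Dotted lines mark the shares among all 19938 genes (8.58% rising, 15.0% falling) and dashed lines those among the 11030 genes above background (12.8% and 26.1%); interferon-stimulated genes, GTPases, NF-kB genes, class I genes and CC chemokines extend furthest right, and lysosome, autophagy and fatty acid oxidation genes furthest left.

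Most genes of class I antigen presentation rose, and few of class II passed in either direction. Of 15 class I and peptide loading genes 13 rose and 0 fell (median 1.38), among them the peptide transporter genes Tap1 (2.85 ± 0.3) and Tap2 (1.88 ± 0.21) and the proteasome activator gene Psme2 (1.94 ± 0.19). Tap1 had 11.19 and 10.59 at 270 min, against 8.27 and 7.81 in unstimulated cells. Of 11 class II pathway genes 1 rose, H2-Oa (at least 1.55-fold), and 1 fell, the master regulator gene Ciita (-0.68 ± 0.18). H2-Oa did not pass without unstimulated array 1, and Ciita with no replicate block or without array 1 of either group. Of 20 co-stimulatory and activation molecules 12 rose and 4 fell. The lymphocyte activation marker Cd69 had 11.99 and 12.1 at 270 min, against 5.29 and 5.37 in unstimulated cells, and rose at least 54.4-fold. Cd40, through which T cells activate macrophages, had 13.0 and 12.49 at 270 min, against 6.93 and 6.91 in unstimulated cells, and rose by 5.83 ± 0.19. Icosl rose by 3.19 ± 0.24, Icam1 by 3.7 ± 0.2 and Vcam1 at least 14.4-fold. Cd200r1, an inhibitory receptor of myeloid cells, had 7.73 and 7.35 at 270 min, against 10.69 and 10.38 in unstimulated cells, and fell by 2.99 ± 0.18, and Cd28 fell by 2.76 ± 0.18.

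Genes of antimicrobial enzymes and of the inflammasome showed a few large changes. Nos2, inducible nitric oxide synthase, had 11.84 and 11.58 at 270 min, against 6.23 and 5.97 in unstimulated cells, and rose at least 43.1-fold. Acod1, which makes itaconate, rose by 5.31 ± 0.23, Gch1, which starts the synthesis of the Nos2 cofactor, by 2.83 ± 0.21 and the arginine importer gene Slc7a2 by 3.12 ± 0.18. These were the 4 rises among 12 genes of nitric oxide, arginine, itaconate and the oxidase, of which 1 fell, Asl (-0.9 ± 0.3), a call lost with no replicate block, under other scalings and without 270 min array 2 or unstimulated array 1. In the inflammasome list 6 of 14 rose and 6 fell, with 3 falling without 270 min array 2 or without unstimulated array 1. Nlrp3 had 10.8 and 10.49 at 270 min, against 7.86 and 7.65 in unstimulated cells, and rose by 2.89 ± 0.16, and Casp4 (1.86 ± 0.2), the mouse sensor of cytosolic LPS, Casp1 (1.34 ± 0.21) and Gsdmd (1.36 ± 0.28), the pore former, rose with it. P2rx7, the ATP-gated channel that triggers Nlrp3, had 7.82 and 7.63 at 270 min, against 9.5 and 9.26 in unstimulated cells, and fell by 1.66 ± 0.19. The complement and acute phase genes Cfb (3.11 ± 0.21), Saa3 (2.52 ± 0.19) and Ptx3 (at least 6.05-fold) rose, 3 of the 6 rises among 16 such genes (4 without unstimulated array 1). None of the 16 passed as a fall in the fit used here, but 3 did where the fit held only total RNA arrays and 2 with quantile scaling.

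Lipid mediator genes changed in both directions. Of 15 prostaglandin and leukotriene genes 5 rose and 6 fell, and 3 rose without unstimulated array 1. Besides Ptgs2, the arachidonate-releasing phospholipase gene Pla2g4a (1.87 ± 0.18) and the prostaglandin E synthase gene Ptges (1.98 ± 0.19) rose. On the side of leukotrienes and prostaglandin D, Lta4h had 6.91 and 6.42 at 270 min, against 8.51 and 8.46 in unstimulated cells, and fell by 1.82 ± 0.22, Alox5ap fell by 1.07 ± 0.21 and Hpgds by 1.99 ± 0.22. Edn1, the vasoconstrictor endothelin-1, had 12.4 and 12.16 at 270 min, against 5.68 and 5.8 in unstimulated cells, and rose at least 64.1-fold. The plasminogen activator inhibitor gene Serpinb2 rose at least 13.7-fold, coagulation factor F10 by 2.05 ± 0.17 and the urokinase receptor gene Plaur by 1.99 ± 0.22, whereas the anticoagulant thrombomodulin (Thbd) fell at least 2.09-fold. Of the matrix proteases and inhibitors 6 of 16 rose and 4 fell, with Mmp13 (5.2 ± 0.29), Mmp14 (2.68 ± 0.24) and Timp1 (at least 7.96-fold) among the rises.

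Iron genes changed in both uptake and export. Of 13 tested 4 rose and 6 fell. With ferroportin fell Hmox1, the haem oxygenase, with 9.59 and 8.82 at 270 min, against 11.14 and 10.95 in unstimulated cells (-1.84 ± 0.24), the transferrin receptor gene Tfrc (-0.92 ± 0.16) and the ferrireductase gene Steap3 (-1.24 ± 0.23). Lcn2, which binds bacterial iron carriers, rose by 3.15 ± 0.21, and Cp, the ferroxidase ceruloplasmin, had 10.62 and 10.84 at 270 min, against 6.19 and 6.46 in unstimulated cells, and rose by 4.41 ± 0.19. Among all 364 solute carriers 35 rose (9.62%) and 70 fell (19.2%), against 8.58% and 15.0% over all genes. Among the rises, beside Slc7a2 above, were those of the cystine importer gene Slc7a11, with 11.54 and 11.5 at 270 min, against 7.59 and 7.91 in unstimulated cells (3.77 ± 0.18), the metal importers Slc39a14 (2.68 ± 0.18) and Slc39a8 (2.03 ± 0.19) and the hexose transporter Slc2a6 (2.51 ± 0.26). After ferroportin the amino acid transporter gene Slc43a2 fell most (-2.64 ± 0.2).

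Genes that burn and export fat fell where they changed. Of 19 fatty acid oxidation and peroxisome genes 0 rose and 10 fell (median -0.7). Pparg, the nuclear receptor that drives lipid uptake and storage, had 8.07 and 8.35 at 270 min, against 9.7 and 10.4 in unstimulated cells, and fell by 1.84 ± 0.2. The mitochondrial oxidation genes Hadh (-1.66 ± 0.26) and Acadm (-1.4 ± 0.21) and the peroxisomal catalase gene Cat (-1.16 ± 0.2) fell as well. Of 14 LXR targets and lipid export genes 0 rose and 7 fell, including the cholesterol exporters Abca1 (-1.36 ± 0.14) and Abcg1 (-1.3 ± 0.25), the LXR partner Rxra (-1.31 ± 0.2) and Scd2, which fell at least 4.48-fold. In the sterol list Ch25h, whose oxysterol product restrains sterol synthesis and viral entry, had 9.34 and 10.16 at 270 min, against 5.67 and 5.19 in unstimulated cells, and rose at least 11.1-fold. The synthesis genes Idi1 (1.87 ± 0.22) and Cyp51 (1.53 ± 0.22) rose and Dhcr7 (-1.5 ± 0.18) fell. Of 20 sterol genes 7 rose and 2 fell; 3 rose without 270 min array 1 or without unstimulated array 1, and 1 fell with no replicate block, with quantile or median scaling, or without 270 min array 2 or either unstimulated array.

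Central energy metabolism gave both rises and falls. Of 20 glycolysis, glucose uptake and hypoxia genes 4 rose, among them Pfkp (1.52 ± 0.19), Hk2 (1.09 ± 0.22) and Hif1a (0.93 ± 0.18), and 4 fell; 2 fell with no replicate block or without 270 min array 2 or either unstimulated array. Of 20 genes of the tricarboxylic acid cycle 1 rose, Cs (0.66 ± 0.22), which did not pass with no replicate block, under other scalings or without 270 min array 1 or either unstimulated array. In the same cycle 9 fell, 3 without 270 min array 2 and 4 without unstimulated array 1. Idh1 had 11.08 and 10.8 at 270 min, against 12.25 and 12.05 in unstimulated cells (-1.21 ± 0.17), and the subunit gene Idh3g (-1.21 ± 0.24) and Fh1 (-1.01 ± 0.19) fell too. Of 33 nuclear genes for oxidative phosphorylation 1 rose and 3 fell, with a median difference of -0.28; 10 fell where the fit held only total RNA arrays, 6 without 270 min array 1, 1 with no replicate block or with arrays centred on their median, and 0 without 270 min array 2 or either unstimulated array. Cycs, cytochrome c, was the gene that rose, with 11.02 and 11.46 at 270 min, against 8.7 and 9.95 in unstimulated cells (1.92 ± 0.27). Of 19 genes of antioxidant defence 4 rose and 3 fell, with a median difference of -0.08; 6 fell where the fit held only total RNA arrays, and 1 with no replicate block, with arrays centred on their median or without either unstimulated array. Sod2, the mitochondrial superoxide dismutase, rose by 2.51 ± 0.13 and the metallothionein gene Mt2 by 1.89 ± 0.2, and the haem transporter gene Slc48a1 fell by 1.29 ± 0.21.

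Many genes of the degradative compartments fell. Of 31 genes for lysosomal proteins and the vacuolar proton pump 1 rose and 20 fell, though 8 fell without 270 min array 2, 10 without unstimulated array 1 and 13 without unstimulated array 2. The median difference over all 31 was -0.58. Npc1, the lysosomal cholesterol exporter, had 9.56 and 9.6 at 270 min, against 11.28 and 11.05 in unstimulated cells (-1.59 ± 0.16). The pump subunit genes Atp6v0d2 (-1.59 ± 0.16) and Atp6v1c1 (-1.04 ± 0.15), the acid lipase gene Lipa (-1.01 ± 0.16) and Gusb (-0.95 ± 0.19) fell too. Ctsc, a protease that activates other proteases, was the 1 gene that rose (1.19 ± 0.14). Of 24 autophagy genes 2 rose (1 without 270 min array 1 or unstimulated array 2) and 14 fell (8 without 270 min array 2). Uvrag had 7.53 and 7.32 at 270 min, against 9.69 and 9.36 in unstimulated cells (-2.1 ± 0.17), and the kinase genes Ulk1 (-1.4 ± 0.19) and Ulk2 (-1.53 ± 0.2), the conjugation enzyme gene Atg7 (-1.5 ± 0.18) and Gabarapl1 (-1.54 ± 0.28) fell with it. Tfeb, a transcription factor of lysosomal genes, had 6.91 and 6.63 at 270 min, against 8.42 and 8.46 in unstimulated cells, and fell by 1.67 ± 0.22. Of 30 sorting nexins, which shape endosomes, 3 rose and 14 fell; 9 fell without unstimulated array 2, and 5 rose where the fit held only total RNA arrays. Snx24 and Snx30 fell at least 7.24- and 6.75-fold, and Snx10 rose by 1.71 ± 0.2.

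Surface receptors of macrophages changed in both directions. Of 29 scavenger and phagocytic receptors 7 rose and 12 fell. Marco, which binds bacteria, had 9.85 and 8.31 at 270 min, against 6.77 and 6.29 in unstimulated cells, and rose by 2.55 ± 0.28, with Msr1 (1.33 ± 0.17) and Pilra (2.58 ± 0.21). Mertk, the receptor for dying cells and a macrophage marker, had 9.0 and 9.21 at 270 min, against 10.31 and 10.32 in unstimulated cells, and fell by 1.21 ± 0.19, and its ligand Gas6 (-1.62 ± 0.21) and the scavenger receptor genes Stab1 (-1.79 ± 0.2) and Scarb1 (-1.6 ± 0.18) fell too. Of 24 G protein coupled receptors and their regulators 7 rose and 10 fell. Gpr84, a receptor of medium-chain fatty acids, rose by 3.93 ± 0.27 and the niacin receptor gene Hcar2 at least 6.72-fold. The cannabinoid receptor gene Cnr2 had 4.71 and 5.24 at 270 min, against 8.92 and 8.53 in unstimulated cells, a fall of at least 4.75-fold, and the receptors of sphingosine 1-phosphate (S1pr1, -2.86 ± 0.17) and of UDP (P2ry6, -2.46 ± 0.19) fell. Inpp5d, the lipid phosphatase SHIP1 that restrains phosphoinositide signalling, had 7.49 and 7.38 at 270 min, against 11.02 and 10.53 in unstimulated cells, and fell by 3.34 ± 0.17. It was among 12 falls and 4 rises in 24 glycosylation and phosphoinositide genes; 7 fell without 270 min array 2, and 2 rose with no replicate block, without 270 min array 1 or without unstimulated array 2.

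Marcksl1, an actin-binding substrate of protein kinase C, had 12.58 and 12.9 at 270 min, against 8.39 and 9.68 in unstimulated cells (3.71 ± 0.23), and Gem (2.39 ± 0.2), Rapgef2 (2.12 ± 0.18) and Rasa2 (2.09 ± 0.21) rose. Rassf3 fell at least 10.3-fold. Of 25 integrin and adhesion genes 8 rose and 5 fell. Besides Icam1 and Vcam1, Itga1 (2.46 ± 0.2), Itgal (2.09 ± 0.18) and Itga5 (2.08 ± 0.23) rose, and Itgb5 (-1.81 ± 0.2), Itga6 (-1.48 ± 0.25) and Itgb3 (-1.13 ± 0.2) fell.

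Transcription factors of the macrophage lineage changed in both directions. Of 26 tested 6 rose and 8 fell. Cebpa, a factor of myeloid differentiation, had 7.06 and 7.34 at 270 min, against 9.34 and 10.14 in unstimulated cells, and fell by 2.54 ± 0.28. Bhlhe40 (-2.63 ± 0.17), Bhlhe41 (-2.53 ± 0.2), Fli1 (-1.97 ± 0.16) and Mef2c (-1.89 ± 0.17) fell, and Tfec (2.77 ± 0.22), Ets2 (2.47 ± 0.22) and Klf7 (1.91 ± 0.18) rose. Of 32 chromatin regulators 6 rose and 7 fell; 3 rose without 270 min array 1 or unstimulated array 2, and 11 fell where the fit held only total RNA arrays. The methyltransferase-like gene Setdb2 had 10.49 and 10.92 at 270 min, against 7.55 and 8.15 in unstimulated cells (2.85 ± 0.22), and the DNA methyltransferase genes Dnmt1 (-1.82 ± 0.2) and Dnmt3a (-1.5 ± 0.19) fell. Tet2 rose by 1.53 ± 0.18 and Tet3 fell by 1.74 ± 0.22. The chromatin regulators rose in 18.8% and fell in 21.9% of cases, against 12.8% and 26.1% of the genes above background. Polr2a, the largest subunit of RNA polymerase II, had 8.5 and 8.25 at 270 min, against 9.74 and 9.91 in unstimulated cells, and fell by 1.45 ± 0.18, while the general factor gene Gtf2b rose by 1.63 ± 0.16 and the Mediator gene Med21 by 2.13 ± 0.17. Of 347 Zfp-named genes, a family made up mostly of zinc finger proteins, 13 rose and 104 fell. Without 270 min array 2 69 fell, and without unstimulated array 2 62 fell; 8 rose when either unstimulated array was left out. Zfp652 (-2.32 ± 0.22) was among the falls, and Zfp800 (1.94 ± 0.19) among the rises.

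Among the cell division lists, genes of DNA replication and repair fell in 43.8% and 46.2% of cases, against 26.1% of the genes above background. Mitosis genes and G1 regulators fell in 28.1% and 26.1% and rose in 15.6% and 21.7%, against 12.8% of the genes above background. The list shares are of all tested members, dim ones included, so these bases differ. Over all genes 15.0% fell and 8.58% rose. Only 16 of 32 mitosis genes lay above background, and 4 of their 9 falls but 0 of their 5 rises were dim in both groups. Of the DNA repair genes 20 of 26 lay above background, and 3 of their 12 falls were dim in both groups. Of 23 G1 regulators 5 rose and 6 fell. Of 32 DNA replication genes 2 rose and 14 fell; 7 fell without 270 min array 2 or without unstimulated array 1 and 9 without unstimulated array 2, and 1 rose without 270 min array 1. Rfc2 (-1.72 ± 0.26), a clamp loader subunit, and Rrm1 (-1.5 ± 0.24), a subunit of ribonucleotide reductase, fell. Of 26 DNA repair genes 1 rose and 12 fell, with Rad50 at 6.76 and 7.05 at 270 min, against 8.35 and 8.62 in unstimulated cells (-1.58 ± 0.19). The 1 rise was that of the damage kinase gene Atm (1.16 ± 0.19). Ccnd2, cyclin D2, had 11.91 and 11.6 at 270 min, against 6.28 and 6.46 in unstimulated cells, and rose by 5.38 ± 0.2. Its partner kinase gene Cdk4 had 9.79 and 8.58 at 270 min, against 11.08 and 10.41 in unstimulated cells, and fell by 1.56 ± 0.25, as did the retinoblastoma family genes Rb1 (-1.47 ± 0.21) and Rbl2 (-1.53 ± 0.18), while their relative Rbl1 (2.32 ± 0.18) and the repressor gene E2f8 (2.07 ± 0.21) rose. Mki67, the proliferation marker Ki-67, had 9.6 and 9.48 at 270 min, against 6.57 and 6.66 in unstimulated cells, and rose by 2.93 ± 0.23, with Mad2l1 (1.77 ± 0.21) and Tpx2 (1.44 ± 0.26); the centromere histone gene Cenpa fell by 1.81 ± 0.21. Of 32 mitosis genes 5 rose and 9 fell, 3 and 4 without unstimulated array 1. Of 18 p53 targets 4 rose and 6 fell; 2 rose with no replicate block, without 270 min array 1 or without unstimulated array 2. Sesn1, which restrains growth signalling, had 7.05 and 6.84 at 270 min, against 10.23 and 10.58 in unstimulated cells, and fell by 3.46 ± 0.23, as did Trp53inp1 (-2.79 ± 0.18), and the kinase genes Plk3 (1.34 ± 0.2) and Plk2 (0.99 ± 0.17) rose.

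Stress pathways did not rise together. Unfolded protein response genes rose in 3.85% and fell in 19.2% of cases, against 12.8% and 26.1% of the genes above background. In the unfolded protein response 1 of 26 genes rose, the phosphatase subunit gene Ppp1r15a (1.61 ± 0.24), and 5 fell; 3 fell without unstimulated array 2, and 9 or 10 where the fit held only total RNA arrays or with quantile scaling. The sensor kinase genes Eif2ak3, with 7.25 and 6.71 at 270 min, against 8.78 and 8.61 in unstimulated cells (-1.72 ± 0.23), and Ern1 (-1.65 ± 0.2) and the factor gene Ddit3 (-1.0 ± 0.2) were among the falls. Cflar, the caspase-8 inhibitor c-FLIP, rose by 2.83 ± 0.16. Of 29 genes of the TGF-beta, Notch and Wnt pathways 9 rose and 7 fell. Jag1 (2.47 ± 0.28), a Notch ligand, and Skil (1.6 ± 0.15), a repressor of TGF-beta signalling, were among the rises, and its relative Ski (-1.23 ± 0.19) among the falls. Enzymes of small signalling molecules rose in 8 of 18 cases and fell in 3 (1 with quantile scaling or when any one array was left out). The histamine-making enzyme gene Hdc rose by 2.16 ± 0.24, Kynu by 1.65 ± 0.2 and Nampt, of NAD synthesis, by 1.27 ± 0.15.

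MicroRNA entries of the array were mostly dim, with 103 of 300 above background in a group, against 11030 of 19938 genes. Of the entries, dim ones included, 4.67% rose and 2.0% fell, against 8.58% and 15.0% of all genes, and a few well-known ones rose. These shares were not matched for level. Of 300 entries 14 rose and 6 fell; 7 rose with no replicate block, 22 to 25 where the fit held only total RNA arrays, 25 without 270 min array 1, and 10 to 13 fell with quantile scaling or where the fit held only total RNA arrays. The 300 include host genes, of which Mir17hg was among the rises. Of the called entries 16 microRNAs reached background on at least 1 array of the 4 compared and matched by name in RefSeq (build GRCm38.p6). Among all called entries 2 rises and 3 falls had no group with both arrays above background. A mature sequence each is shown for Mir155, Mir146 and those called members that lie close together, because neighbours that moved the same way can then be set side by side. Capitals mark the seed, bases 2 to 8.
mmu-miR-155-5p, chr16:84714143-84714165, plus strand: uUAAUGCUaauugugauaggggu
mmu-miR-146a-5p, chr11:43374435-43374456, minus strand: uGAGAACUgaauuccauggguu
mmu-miR-221-3p, chrX:19146307-19146329, minus strand: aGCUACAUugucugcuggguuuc
mmu-miR-222-3p, chrX:19146901-19146923, minus strand: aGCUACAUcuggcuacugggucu
mmu-let-7e-5p, chr17:17830366-17830387, plus strand: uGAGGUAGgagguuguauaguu
mmu-miR-125a-5p, chr17:17830817-17830840, plus strand: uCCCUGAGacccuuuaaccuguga
mmu-miR-99b-5p, chr17:17830194-17830215, plus strand: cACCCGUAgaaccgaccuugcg
mmu-miR-18a-5p, chr14:115043867-115043889, plus strand: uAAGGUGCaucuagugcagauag
mmu-miR-19a-3p, chr14:115044048-115044070, plus strand: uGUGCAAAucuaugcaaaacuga
mmu-miR-20a-5p, chr14:115044183-115044205, plus strand: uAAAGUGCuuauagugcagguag
mmu-miR-19b-3p, chr14:115044358-115044380, plus strand: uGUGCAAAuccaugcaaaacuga
mmu-miR-23a-3p, chr8:84208563-84208583, plus strand: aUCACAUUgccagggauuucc
mmu-miR-27a-3p, chr8:84208727-84208747, plus strand: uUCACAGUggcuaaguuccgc
Mir155, an amplifier of macrophage activation, had 11.5 and 11.91 at 270 min, against 5.68 and 5.6 in unstimulated cells, a rise of at least 43-fold. Mir221, with 10.96 and 11.54 at 270 min, against 8.0 and 8.64 in unstimulated cells, rose by 2.93 ± 0.21, and Mir222, with 10.13 and 10.42 at 270 min, against 7.37 and 7.38 in unstimulated cells, by 2.9 ± 0.24. These last 2 share the seed GCUACAU and lie 531 bases apart on chromosome X. Mir146, whose mature RNA restrains Irak1 and Traf6, had 8.95 and 8.49 at 270 min, against 6.39 and 5.99 in unstimulated cells, and rose by 2.53 ± 0.22. On chromosome 17 Mirlet7e, which lies within 384 bases of Mir125a and 112 bases of Mir99b, rose by 1.42 ± 0.26. Mir125a, with 7.77 and 7.67 at 270 min, against 6.8 and 6.39 in unstimulated cells, rose by 1.13 ± 0.21. Mir99b, with 8.2 and 7.38 at 270 min, against 7.13 and 7.03 in unstimulated cells, rose by 0.71 ± 0.2, a call lost without the first 270 min array, where the difference was 0.39, without the first unstimulated array, where it was 0.59, and without the experiment block. On chromosome 14 Mir18, with 7.39 and 7.41 at 270 min, against 5.97 and 6.79 in unstimulated cells, rose by 1.01 ± 0.23. Its neighbours Mir19a (at least 1.2-fold), Mir20a (0.85 ± 0.21) and Mir19b-1 (0.79 ± 0.22) rose, each 79 to 118 bases from the next, and Mir19a and Mir19b-1 share the seed GUGCAAA. All 4 calls of this cluster were lost with no replicate block and without 270 min array 1, those of Mir20a and Mir19b-1 also without unstimulated array 2, and that of Mir20a without unstimulated array 1. Mir17, of the same host gene, had a difference of 0.58 and did not pass. Away from these clusters Mir674 rose by 1.47 ± 0.18, and Mir455 by 0.71 ± 0.23, a call lost with no replicate block and without 270 min array 2 or either unstimulated array. Mir687 was at least 1.61-fold lower. Mir23a and Mir27a, neighbours on chromosome 8 at 101 bases, fell by 1.03 ± 0.18 and 0.86 ± 0.18. Whether these probe sets read the mature RNA or its longer precursor was not tested.

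Total RNA at 45 min of LPS places the 270 min levels in time. Both comparisons with 270 min share the 270 min arrays, so their values are only set side by side. From 45 to 270 min 1711 genes rose (8.58%) and 2884 fell (14.5%); 1115 rose without the 45 min array of experiment 1, and 1710 and 1752 fell without the 270 min and the 45 min array of experiment 2. Tnf had mean levels of 7.89, 13.17 and 13.26 at 0, 45 and 270 min, and its difference of 270 min minus 45 min was 0.1 ± 0.16, which did not pass. Differences from 45 min are of measured levels, without bounds. Cxcl1 (0.32 ± 0.17) and Cxcl2 (0.15 ± 0.2) likewise did not pass between 45 and 270 min. Il6 had means of 3.97, 5.63 and 12.69 at the same times, a rise of 7.06 ± 0.24 after 45 min. Nos2 (5.73 ± 0.18), Mx1 (5.73 ± 0.22), Iigp1 (6.0 ± 0.21), Gbp4 (5.56 ± 0.2) and Ccnd2 (5.18 ± 0.2) also rose after 45 min. Egr1, an immediate early transcription factor, had means of 6.47, 11.19 and 6.36, with the largest fall after 45 min (-4.84 ± 0.23) and a 270 min minus unstimulated difference of -0.12 ± 0.23. Jun had 10.42, 11.18 and 7.96 and so ended below its unstimulated level. The leading falls came after 45 min too, with Cxcr4 at 12.46, 12.3 and 8.4 and Slc40a1 at 10.04, 9.88 and 5.64.

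**Figure D4:**
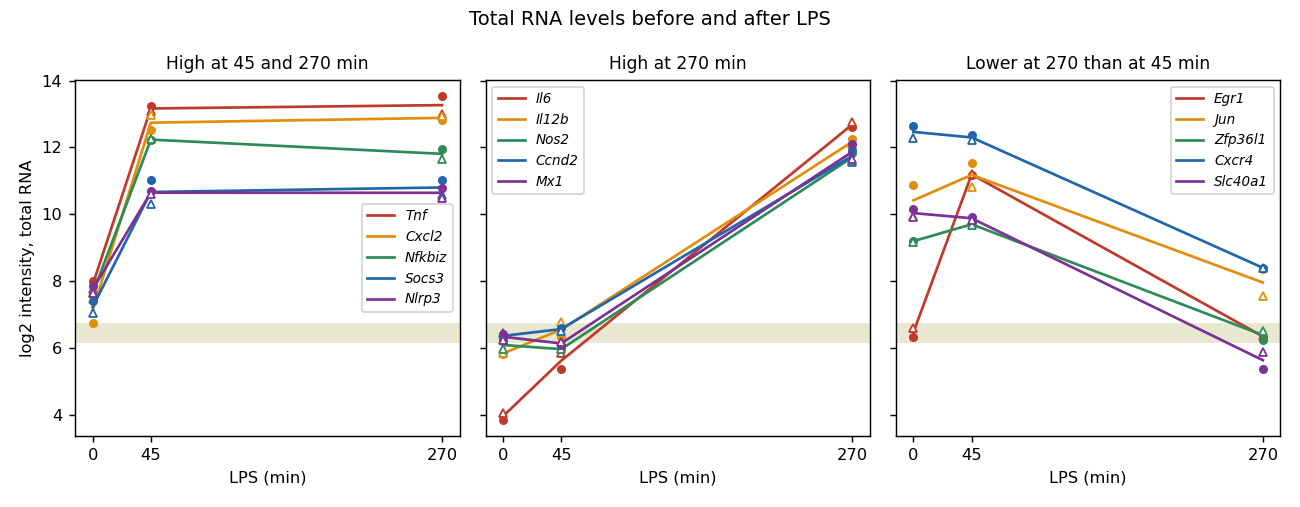
Log2 level in total RNA at 0, 45 and 270 min of LPS (horizontal axis, to scale), with points for the 2 arrays of each time (circles experiment 1, triangles experiment 2), lines through their means and the background band shaded. Tnf, Cxcl2, Nfkbiz, Socs3 and Nlrp3 are in the left panel, Il6, Il12b, Nos2, Ccnd2 and Mx1 in the middle, and Egr1, Jun, Zfp36l1, Cxcr4 and Slc40a1 on the right.

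Nascent RNA purified from the same cultures gave another reading of the 270 min change on arrays of its own. In it 2163 genes rose (10.8%) and 3396 fell (17.0%). Of genes that rose in total RNA, 1286 rose in nascent RNA as well, which is 75.2% of the total RNA rises and 59.5% of the nascent RNA rises. Of genes that fell, 2372 were shared, 79.1% of the total RNA falls and 69.8% of the nascent RNA falls. Il6 differed by 8.79 ± 0.24 in nascent RNA, against 8.72 ± 0.24 in total RNA. Named after their values were seen, 1 gene that rose in total RNA fell in nascent RNA, the RNA polymerase II subunit gene Polr2c, and 2 that fell in total RNA rose in nascent RNA, Gatm, of creatine synthesis, and Ppih, a spliceosomal cyclophilin. All 3 lay close to the threshold in total RNA (adjusted p = 0.0425 to 0.0489). How far the nascent change exceeded the total RNA change was tested within cultures, and this excess was called positive for 112 genes (0.562%) and negative for 379 (1.9%). The excess was positive for 39, 18, 60 and 27 genes without the cultures of 270 min experiments 1 and 2 and unstimulated experiments 1 and 2, and negative for 140, 181, 443 and 126. With no replicate block the counts were 24 and 144, and with arrays centred on their median 51 and 232.

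**Figure D5:**
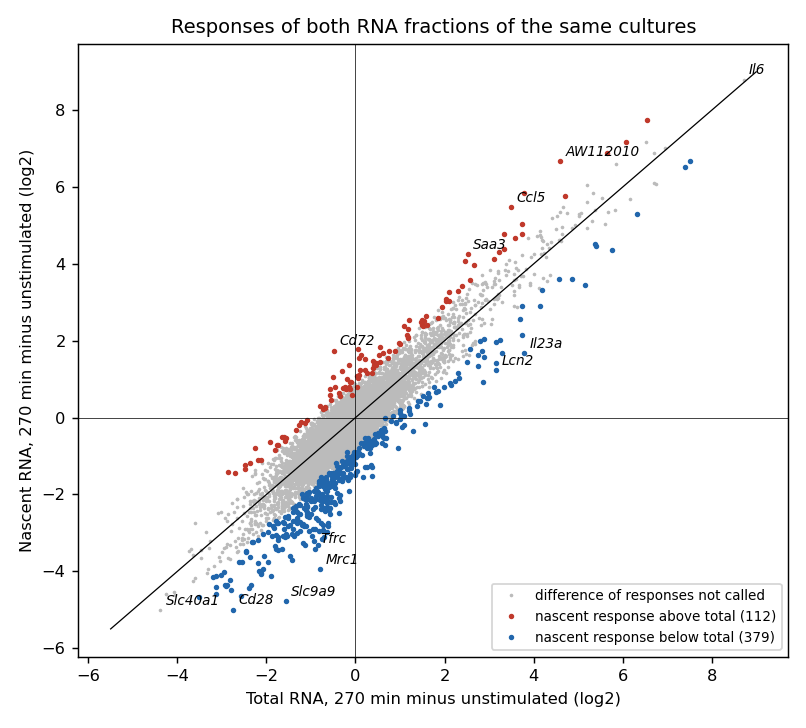
Difference of 270 min LPS minus unstimulated in nascent RNA (vertical axis, log2) against that in total RNA (horizontal axis, log2), 1 point a gene. Red points are the 112 genes with a greater and blue points the 379 with a smaller value in nascent RNA; Ccl5 lies above the diagonal and Mrc1 and Tfrc below it.

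Markers of other cells that a marrow culture could hold were summed over each list, as linear intensities. The 7 macrophage markers summed to 27950 and 34590 on the lower and higher 270 min array, against 34610 and 39730 on the unstimulated arrays, and 3 fell, Csf1r, Mertk and Cd68; Cd68 did not pass when any one array was left out. The 7 neutrophil markers summed to 427.9 and 542.0 at 270 min, against 345.1 and 397.0 in unstimulated cells, with 1 above background in the 270 min arrays and 0 in the unstimulated arrays. Markers of mast cells and basophils, 4 of 6 above background in both groups, summed to 730.2 and 1591 at 270 min, against 489.3 and 1494 in unstimulated cells. The 4 endothelial markers, 1 above background in each group, summed to 887.5 and 1175 at 270 min, against 385.7 and 600.4 in unstimulated cells. The 1 that rose was Kdr, a call lost with no replicate block. Of 3 erythroid and megakaryocyte markers 1 rose, the platelet chemokine gene Pf4. Pf4 had 8.36 and 8.77 at 270 min, against 6.4 and 7.32 in unstimulated cells, and rose by 1.71 ± 0.2. Of 6 dendritic cell markers 3 lay above background at 270 min and 4 in unstimulated cells. Of 4 osteoclast markers 3 and 4 did, and of 5 stromal markers 2 in each group. No dendritic cell or stromal marker passed, and 1 osteoclast marker rose and 1 fell. Their part in the results above was not tested.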

How the data were processed

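Total and nascent RNA of 6 cultures was hybridised to 12 Affymetrix Mouse Gene ST 1.0 arrays, 2 experiments in each of 6 groups. The deposited table gives an intensity for each probe set, on a linear scale. Per the submitters' processing notes, RMA and the Affymetrix Expression Console were used. Their versions and settings, and which arrays shared a normalisation, were not given in the sources used. The design assumed log2 values, so log2 was taken first. RMA hides a shift shared by all genes and compresses dim changes. Per the labels' protocols, 200 ng of total and 100 ng of nascent RNA were amplified.

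In the platform annotation 21789 of 35557 probe sets bore 1 symbol, 1621 bore several and 12147 had no entry. Of the named ones 21698 were found in RefSeq. Of 19938 symbols, 999 had more than 1 probe set, and the one with the highest mean over 12 arrays was kept. No filter on level was applied.

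A mean per group and an experiment term (the replicate block) were fitted to all 12 arrays with limma 3.58.1 in R 4.3.3, with an intensity trend (residual df 5, prior 9.9) and Benjamini-Hochberg adjustment over all genes at 0.05. The nascent minus total change was fitted on 6 within-culture differences (residual df 2, prior df infinite). Its p-values therefore rest on a spread shared by genes of like intensity, and a gene's own spread had no weight. Tables and figures used Python 3.11.15, numpy 2.4.6, pandas 2.3.3 and matplotlib 3.10.9. The code was tested on simulated data. Experiment numbers, which the labels give as 2 independent experiments, pair the arrays: deviations from group means of same-numbered total RNA arrays correlated at 0.326 to 0.645, though over all 15 pairs of groups the range was -0.295 to 0.645.

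Members, 58 gene lists and named families were chosen with earlier results of these data known; 1 list is not reported here. Named genes are the 30 largest rises and 30 largest falls that kept their sign in each experiment and had a group above background, up to 6 rising and 6 falling members of each list (up to 3 bright members where fewer than 2 were called), the 8 largest each way for 270 against 45 min and for nascent minus total RNA, and the 3 genes on each side of the threshold.

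Alternatives were the fit without the block, fits on 6 or 4 total RNA arrays, quantile and median scaling, leaving out dim genes, log2(intensity + 16), no trend, the mean over probe sets, the culture as a random block, and leaving out each array. The 4-array precision is limited by the number of arrays.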

Additional observations from a re-analysis of the deposited data

Results flagged for a closer look

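The change at 270 min of LPS differed between nascent and total RNA by the within-culture test for 112 genes with a greater and 379 with a smaller value in nascent RNA. The 8 largest in each direction by the rule for named genes are given here as the nascent minus the total RNA difference on the log2 scale. Cd72, a B cell and macrophage inhibitory receptor, differed by 2.24, the long non-coding transcript AW112010 by 2.07, Ms4a4c by 2.06, the chemokine gene Ccl5 by 1.98, Ly6e by 1.73, the acute phase gene Saa3 by 1.73, BC147527 by 1.63 and Ebpl by 1.57. In the other direction the sodium/proton exchanger gene Slc9a9 differed by -3.21, the mannose receptor gene Mrc1 by -3.15, the transferrin receptor gene Tfrc by -2.5, Pmp22 by -2.46, the protease gene Ctsk by -2.42, the fatty acid transporter gene Cd36 by -2.4, the bridging protein gene Mfge8 by -2.36 and Bex1 by -2.29. In total RNA alone Mrc1 differed by -0.8 and Tfrc by -0.92, and Ly6e by 0.06. No array could be set apart within a group, since each group holds 2.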

How the results depend on the processing

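Differences of all 676 named genes kept their direction where called in every alternative run, and 479 of 646 called ones stayed past the threshold throughout (563 in alternatives that keep all arrays). The kept direction is no separate check, since most named genes were picked as the largest called changes. Fits without the block or the trend, on 6 or 4 arrays, or with a random block leave each difference unchanged. Without the replicate block, which pairs arrays by experiment, 1400 genes rose and 2387 fell at 270 min, and 73 named genes were no longer past the threshold. The nascent minus total difference was then called greater for 24 and smaller for 144 genes. Fits on the 4 arrays compared gave 2329 rises and 4043 falls, and on the 6 total RNA arrays 2122 and 3916. Quantile scaling within a fraction gave 1883 and 2711, and median centring 1888 and 2611 with the median of all genes at 0.1. For nascent minus total RNA median centring gave 51 and 232 genes and quantile scaling 241 smaller. Leaving out 1 array, with the lone array assumed to vary like the other groups, gave 1111 to 1848 rises and 1828 to 2643 falls at 270 min against unstimulated cells, 1115 to 2000 rises and 1710 to 2608 falls against 45 min, and 18 to 60 greater and 126 to 443 smaller nascent values. Changes of 2-fold or more moved less (845 to 986 rises, 1121 to 1563 falls). Leaving out dim genes tests fewer genes. Causes of the other movements were not tested. With 2 arrays a group and no detection calls, changes of dim genes are limited by background, and no culture's number of animals is known here.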

Other observations

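Protein turnover genes that belong to none of the groups above changed in both directions in total RNA at 270 min. Of 31 proteasome core and lid subunits 6 rose and 0 fell; 14 rose where the fit held only total RNA arrays, and 3 without the unstimulated array of experiment 1. Psma6 had 11.51 and 12.03 at 270 min, against 9.82 and 10.65 in unstimulated cells, and rose by 1.53 ± 0.16, and Psma5 rose by 1.2 ± 0.2. Of 55 ubiquitin-specific proteases 12 rose and 8 fell; 6 and 7 rose without the unstimulated array of experiment 1 and of experiment 2, 5 fell without the 270 min array of experiment 2, and 13 fell where the fit held only the 4 arrays compared. Usp47 (2.05 ± 0.17), Usp12 (1.76 ± 0.2) and Usp42 (1.61 ± 0.19) rose beside Usp18, and Usp30, which acts on mitochondria, had 7.28 and 7.09 at 270 min, against 8.44 and 8.76 in unstimulated cells, and fell by 1.41 ± 0.22. The F-box gene Fbxo32, atrogin-1, known from muscle wasting, had 5.96 and 5.91 at 270 min, against 8.89 and 8.78 in unstimulated cells, at least 5.12-fold lower, and Fbxl20 fell by 2.38 ± 0.2. The co-chaperone genes Stip1 (1.42 ± 0.2) and Dnaja1 (1.03 ± 0.21) rose and Hsph1, of the Hsp110 family, fell by 1.25 ± 0.19.

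Of the motor and translation genes in these lists that passed, most fell, as did most called genes over the whole array (3000 falls, 1710 rises). Of 61 cytosolic ribosomal protein genes 0 rose and 10 fell (2 to 31 in alternatives that kept every array and gene). Fewer of them fell when any single array was left out. Of 77 mitochondrial ribosomal protein genes 3 rose and 8 fell (4 to 22). Of 16 mitochondrial tRNA synthetase genes 0 rose and 6 fell (4 to 9). Of 52 tRNA and rRNA modification genes 3 rose and 13 fell (10 to 19). The number of falls in each of these lists also moved when single arrays were left out. These falls, at 16.4%, 10.4%, 37.5% and 25.0%, and those of kinesins, at 21.1%, stand against 26.1% of the genes above background. Only the mitochondrial tRNA synthetases exceeded that share. Of 38 kinesins 8 fell (5 without the unstimulated array of experiment 1), and 1 rose, Kif5b (0.57 ± 0.18), which did not pass when any one array was left out. Kif3a, a motor of cilia and vesicle transport, had 7.27 and 7.07 at 270 min, against 10.22 and 10.05 in unstimulated cells, and fell by 2.96 ± 0.23. Wars, the tryptophanyl tRNA synthetase known to be induced by interferon, rose by 1.2 ± 0.2 and Rars, for arginine, by 1.07 ± 0.18, whereas Nars, for asparagine, fell by 0.94 ± 0.17. Psat1, of serine synthesis, had 8.37 and 7.14 at 270 min, against 6.55 and 6.33 in unstimulated cells, and rose by 1.31 ± 0.26, while the glutamine transporter gene Slc1a5 fell by 1.01 ± 0.2.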
